A study of Arabidopsis thaliana with 4 samples.

Results

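Thioredoxins and glutaredoxins are small proteins that share one fold and reduce disulfide bonds in other proteins through cysteines in a short active site. An oxidised thioredoxin is reduced again by a thioredoxin reductase, with electrons from NADPH in the cytosol and mitochondria and from ferredoxin in plastids, whereas a glutaredoxin is reduced by glutathione. In plants they keep peroxidases and methionine sulfoxide reductases supplied with electrons, set the activity of plastid enzymes, help to carry iron-sulfur clusters and, in the land-plant CC-type glutaredoxins, bind TGA transcription factors.

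The genes described here are the 111 loci, of 23381 with a read in any library, whose gene name in the files holds the word thioredoxin or glutaredoxin, with names of glutathione S-transferases left out and isoforms summed. Transcripts of Arabidopsis thaliana roots were counted by RNA sequencing in coi1-2, a line with a point mutation in the jasmonate receptor gene COI1, and in the wild type Col, each exposed to 10 µM AlCl3 or kept without Al. Every sample pooled the roots of about 500 seedlings 6 days old, and the 4 groups held 1 library each: coi1-2 with Al (7.19 M reads), coi1-2 without Al (7.42 M reads), Col with Al (6.93 M reads) and Col without Al (7.80 M reads). The labels differ on the exposure, with 6 h in the titles and the treatment protocol and 24 h in the design text, and on the libraries without Al, which the titles place at 0 h and the protocol at 6 h. If these were taken at the start, time in solution and time of day cannot be told apart from Al in any value below. A single mutant line was profiled, so the COI1 mutation cannot be told apart from other differences of that line, and the COI1 transcript, whose level such a change can leave as it is, does not check the label.

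Whether Al treatment and the jasmonate receptor mutation went with different levels of these redox genes is the question the design puts. Levels are given as TMM-scaled RPKM, the deposited reads scaled to transcript length and library total, divided by a factor per library that sets the bulk of genes level. The factors were 0.928 in coi1-2 with Al, 1.20 in coi1-2 without Al, 0.753 in Col with Al and 1.19 in Col without Al. The genes fell into 64 with a class (18 CC-type, 6 CPYC-type and 2 CGFS-type glutaredoxins, 8 h-type, 2 o-type and 11 plastid thioredoxins, 6 atypical ACHT or WCRKC thioredoxins, 5 thioredoxins with tetratricopeptide repeats and 6 thioredoxin reductases) and 47 in no class. The classes are hand-made lists by locus code. Of the 111, between 99 and 106 had a read in a given library, 97 reached 1 RPKM in at least 1 library, and 87 had enough reads for the test described below. The other 24 had at most 20 reads in any library.

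The active site sets the glutaredoxin and thioredoxin classes apart, and the coding sequence around it is shown for the members that carry the results, with the codons of the active site in capitals. The bases are those of the RefSeq annotation on TAIR10.1, whose genes overlap the files' positions of all 111 loci.
TRX5 (chr1:17075477-17075527, reverse strand): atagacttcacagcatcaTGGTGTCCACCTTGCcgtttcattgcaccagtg
TRX-M4 (chr3:5189200-5189250, forward strand): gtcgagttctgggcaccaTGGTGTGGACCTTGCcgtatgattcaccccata
AT1G77370 (chr1:29074057-29074266, forward strand, across an intron): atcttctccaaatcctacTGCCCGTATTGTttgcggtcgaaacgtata
GRXS17, first of 3 sites (chr4:2518785-2518832, reverse strand): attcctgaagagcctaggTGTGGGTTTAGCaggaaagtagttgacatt
GRX480 (chr1:10013865-10013912, reverse strand): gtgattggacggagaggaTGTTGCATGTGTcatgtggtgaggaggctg
AT3G62930 (chr3:23261757-23261804, reverse strand): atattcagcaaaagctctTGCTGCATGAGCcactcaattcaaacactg
AT4G33040 (chr4:15941010-15941057, reverse strand): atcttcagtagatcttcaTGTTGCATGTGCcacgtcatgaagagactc
The h-type TRX5, the plastid TRX-M4 and the CPYC-type AT1G77370 each had 2 cysteine codons in the stretch, and the CGFS-type GRXS17 had 1 in each of its 3 copies. GRX480 had 3 and AT3G62930 had 2, adjacent in both cases at the start of the site, the feature that gives the CC-type its name. AT4G33040, which is in none of the class lists used here, had 3 cysteine codons in the same arrangement as GRX480.

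Taken as a group, these genes made up a larger share of the reads in the libraries with Al: 0.520% with Al and 0.402% without Al in coi1-2, and 0.572% with Al and 0.420% without Al in Col. Their summed level was 6264 with Al and 3592 without Al in coi1-2, and 8833 with Al and 3763 without Al in Col. In Col without Al, 3 genes alone held 36.2% of the sum. One of these, TRX3, an h-type thioredoxin of the cytosol, had the highest mean level of its class, 1334 with Al and 816 without Al in coi1-2, and 2039 with Al and 825 without Al in Col. Members at 100 TMM-scaled RPKM or more numbered 14 with Al and 9 without Al in coi1-2, and 20 with Al and 10 without Al in Col.

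Al was tested over both genotypes with edgeR's quasi-likelihood test, genotype as a term, 2 libraries an arm and Benjamini-Hochberg adjustment over 16477 loci. With an adjusted p under 0.05, 41 of the 87 tested members rose (47.1%) and 11 fell (12.6%), against 25.5% and 26.3% of all tested loci. Their median log2 fold change was 0.74, against -0.03 over all tested loci. Rises, falls and fold changes of single genes below are log2 values, except where a number is followed by -fold. The response also ran with transcript length in these libraries, and these genes are short, with a median of 890 bases against 1487 for all tested loci. Among all loci in the shortest of 5 equal length classes (up to 909 bases) 49.7% rose and 9.45% fell, and of the 49 members there 30 rose and 3 fell. With the length trend of each library taken out as an offset, 28 members rose (32.2%) and 13 fell (14.9%), against 27% and 23.7% of all tested loci, with a median of 0.14. Of the members, 26 rose and 11 fell in both fits, and 0 changed direction. The part of transcript length in the count was not tested otherwise.

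**Figure D1:**
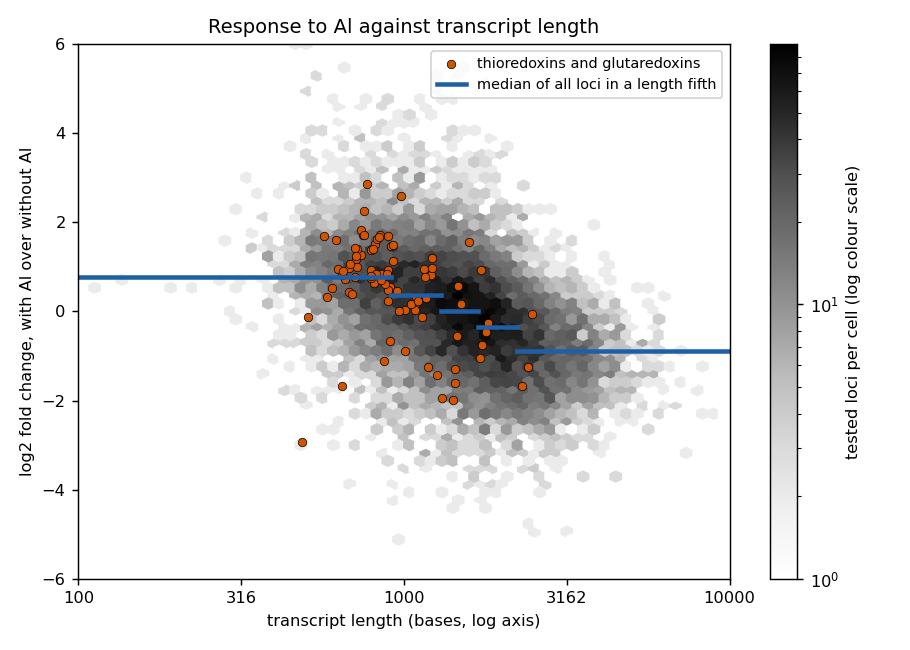
Log2 fold change with Al over without Al (edgeR, both genotypes) against transcript length in bases on a log axis. Grey cells hold the tested loci (those beyond the axes are not drawn), blue lines are the medians of 5 length classes (0.78 in the shortest and -0.90 in the longest), and orange points are the 87 tested members, most of which lie among short transcripts.

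Of the members that passed, 15 that rose and 3 that fell also passed in the same direction in every alternative fit, namely other scaling, no filter, the length offset, DESeq2, limma-trend, and each library left out in turn. They were TRX5 and TRX1 of the h type, THX, TRX-M4, TY1, ty2, ATHM2 and THM1 of the plastid thioredoxins, ACHT1, the reductase subunit FTRA2, the CPYC-type AT1G77370, and AT4G33040, AT5G38900, AT5G42850 and AT5G13810, all of which rose, and TTL4, AT3G62930 and AT5G03870, which fell. The other 26 that rose and 8 that fell did not pass in at least 1 of these fits. Leaving out the library of Col without Al gave 19 higher and 6 lower members, and leaving out coi1-2 without Al gave 17 and 3. Without Col with Al the counts were 34 and 6, and without coi1-2 with Al they were 46 and 12.

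**Figure D2:**
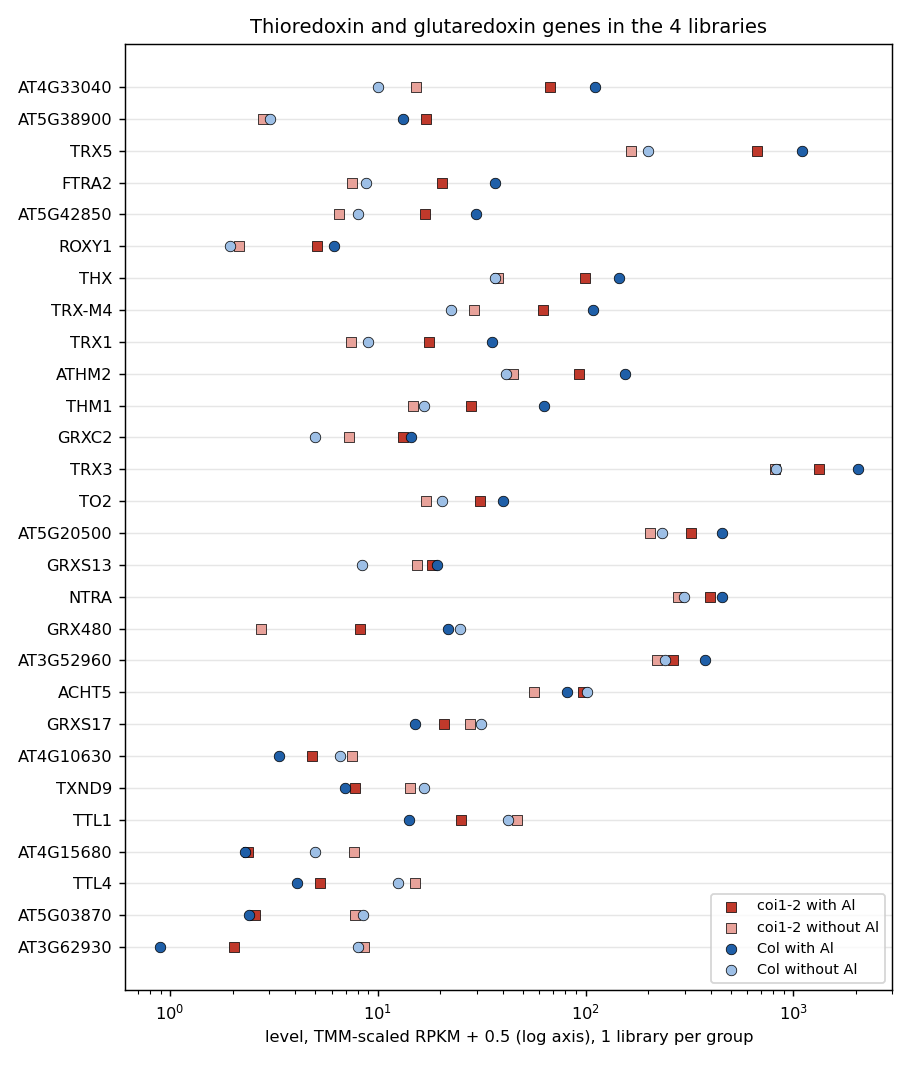
Levels in TMM-scaled RPKM plus 0.5 on a log axis for 28 named members, 1 point per library, ordered by the log2 fold change with Al. From AT4G33040 down to TO2 both libraries with Al lie right of both libraries without Al, and from GRXS17 to AT3G62930 they lie left of them.

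The h-type thioredoxins are the main cytosolic reductants of the family. Of the 8 with the word in their name, 5 rose and 0 fell, with a median log2 fold change of 0.96 (0.21 with the length offset, where 2 rose). Over all tested loci 25.5% rose and 26.3% fell, and with the offset 27% and 23.7%. These 8 genes had a median length of 708.5 bases, in the shortest length class, where 49.7% of all loci rose and 9.45% fell. CXXS1, an h-type gene left out by the name rule, fell with the offset and is given under the other observations. TRX5, which in Arabidopsis reduces the salicylate receptor NPR1, lies on chromosome 1 at 17074942 to 17076330, reverse strand in the files' coordinates, whose build is not given in the sources used here. Its level was 670.5 with Al and 164 without Al in coi1-2, and 1104 with Al and 199 without Al in Col. Both libraries with Al stood far above both without, with log2 ratios of 2.03 in coi1-2 and 2.47 in Col (log2 fold change 2.25, SE 0.31, edgeR adjusted p = 1.57e-10; 1.57 with the length offset). TRX1 had 17.2 with Al and 6.95 without Al in coi1-2, and 34.8 with Al and 8.52 without Al in Col, again with no overlap between the treatments (log2 fold change 1.68, SE 0.36, edgeR adjusted p = 2.91e-05). TRX3, the most abundant, had the smaller log2 fold change of 1.01 (edgeR adjusted p = 0.00458). It did not pass with the length offset (0.29, edgeR adjusted p = 0.287), nor in 2 of the fits that left out a library (edgeR adjusted p = 0.195 without the Col without Al library and 0.217 without the coi1-2 without Al library). ATTRX4 and TRX2, named after their values were seen, rose by 1.18 and 0.91 and did not pass with the offset, nor without coi1-2 without Al (edgeR adjusted p = 0.152 and 0.238). ATTRX4 was also lost without Col with Al (edgeR adjusted p = 0.0562) and TRX2 without Col without Al (edgeR adjusted p = 0.197). TH7, TH8 and TH9, the weakly read members at 2.60 to 9.76 TMM-scaled RPKM, did not pass, with fold changes of 0.33 to 0.77. TO2, a mitochondrial o-type thioredoxin, rose by 0.94, with 0.28 and no call under the offset, and lost its call in 2 fits with a library left out (edgeR adjusted p = 0.144 without the Col without Al library and 0.287 without the coi1-2 without Al library).

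Plastid thioredoxins, which are reduced through ferredoxin and pass electrons to enzymes and peroxiredoxins of the plastid, rose in 6 of 11 cases and fell in 0, and the same counts held with the length offset. Their median log2 fold change was 1.47, and 0.87 with the offset. Of all tested loci 25.5% rose and 26.3% fell, and with the offset 27% and 23.7%. In the shortest length class, which holds the median length of these 11 genes (887 bases), 49.7% of all loci rose and 9.45% fell. The m-type TRX-M4 had 62.0 with Al and 28.6 without Al in coi1-2, and 108 with Al and 22.0 without Al in Col (log2 fold change 1.70, SE 0.30, edgeR adjusted p = 3.27e-07). THX, of the x type, had 99.3 with Al and 37.4 without Al in coi1-2, and 145 with Al and 36.0 without Al in Col (log2 fold change 1.71, SE 0.29, edgeR adjusted p = 1.60e-07), so that the treatments did not overlap in either gene. ATHM2, the plastid thioredoxin of highest level, had 93.0 with Al and 44.3 without Al in coi1-2, and 154 with Al and 40.9 without Al in Col, with a fold change of 1.49; 2 isoforms are listed for it, and reads common to both would be missing from unique counts. THM1 had a fold change of 1.47, which was 0.87 without the library of Col with Al and 2.06 without that of coi1-2 with Al. TY1 and ty2, named because they passed in every fit, rose by 1.62 and 1.51. The f-type TRXF1 and TRXF2, which activate carbon-fixing enzymes, TRX z, a partner of plastid transcription, HCF164 of the thylakoid and ATHM3 did not pass, with values of -0.13 to 0.85. Genes of green shoot tissue, none of which is a thioredoxin, moved with this class. All 11 tested ones rose (9 with the offset), and their summed level was 393.9 with Al and 129.1 without Al in coi1-2, and 691.5 with Al and 89.2 without Al in Col. LHCA3 of that list had 0 reads in coi1-2 with Al. Their part in the result was not tested, and in bulk roots more cells of a type and more RNA per cell cannot be told apart.

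The plastid reductase that feeds these thioredoxins showed the same direction. FTRA2, a variable subunit of ferredoxin-thioredoxin reductase, had 19.9 with Al and 7.03 without Al in coi1-2, and 36.2 with Al and 8.31 without Al in Col, with no overlap between the treatments (log2 fold change 1.82, SE 0.34, edgeR adjusted p = 1.87e-06). FTRA1, the other variable subunit and named after its values were seen, rose by 1.41, but did not pass without Col without Al (edgeR adjusted p = 0.117). The catalytic subunit AT2G04700 was at 0.64 (edgeR adjusted p = 0.0598) and did not pass. NTRA, the NADPH-dependent reductase of cytosol and mitochondria and the most abundant of the 6 reductases, had 397 with Al and 278 without Al in coi1-2, and 456 with Al and 297 without Al in Col. These ranges did not overlap, but the fold change of 0.56 did not pass (edgeR adjusted p = 0.103). It passed with the length offset at a fold change of 0.56 (edgeR adjusted p = 0.0246), and also without Col with Al (edgeR adjusted p = 0.0481) and without coi1-2 with Al (edgeR adjusted p = 0.00651). NTRB (0.16) and the plastid NTRC (-0.27) did not pass, so of 6 reductases 2 rose, 0 fell, and 3 rose with the offset. The share of all tested loci that rose was 25.5%, and 27% with the offset.

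**Figure D3:**
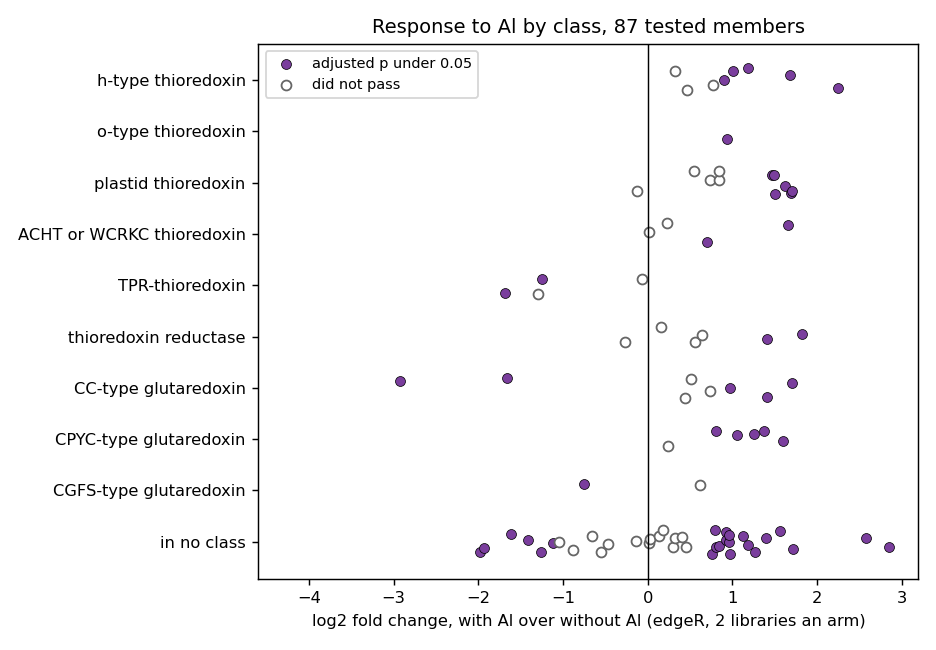
Log2 fold change with Al over without Al (edgeR, 2 libraries an arm) for each of the 87 tested members by class. Filled points passed at an adjusted p of 0.05, open points did not; all called plastid and h-type thioredoxins lie right of 0, and the tetratricopeptide (TPR) class lies left of it.

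CPYC-type glutaredoxins, the classical glutathione-dependent disulfide reductases, rose in 5 of 6 cases and fell in 0, with a median of 1.16, and in 2 of 6 with the length offset (median 0.43). Of all tested loci 25.5% rose, and 27% with the offset. These 6 genes had a median length of 699 bases, in the shortest length class, where 49.7% of all loci rose. AT1G77370, named because it passed in every fit, had 209 with Al and 84.4 without Al in coi1-2, and 334 with Al and 90.5 without Al in Col, the treatments lying well apart (log2 fold change 1.59, SE 0.29, edgeR adjusted p = 9.50e-07). AT5G20500 was the most abundant glutaredoxin of the class, at 321 with Al and 204 without Al in coi1-2, and 455 with Al and 232 without Al in Col. Both libraries with Al were above both without, yet its fold change of 0.81 was 0.038 with the length offset (edgeR adjusted p = 0.89). It also did not pass when a library without Al was left out (edgeR adjusted p = 0.206 without the Col without Al library and 0.35 without the coi1-2 without Al library). GRXC2, a cytosolic glutaredoxin, had 12.8 with Al and 6.78 without Al in coi1-2, and 14.0 with Al and 4.51 without Al in Col, and its fold change of 1.25 became 0.55 with the offset (edgeR adjusted p = 0.166). Its call was lost too without either library lacking Al (edgeR adjusted p = 0.232 without the Col without Al library and 0.0623 without the coi1-2 without Al library). The 2 CGFS-type members named by the rule on names, which handle iron-sulfur clusters, did not rise. GRXS17, needed in Arabidopsis for meristem growth in heat, had 20.3 with Al and 27.4 without Al in coi1-2, and 14.6 with Al and 30.8 without Al in Col, and both libraries with Al lay below both without (log2 fold change -0.75, SE 0.29, edgeR adjusted p = 0.0213). That call did not hold in 3 fits with a library left out (edgeR adjusted p = 0.0626 without the Col with Al library, 0.346 without the Col without Al library and 0.227 without the coi1-2 without Al library). GRX4, the mitochondrial member, had a fold change of 0.62 and did not pass.

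The listed CC-type glutaredoxins, a class whose founding members ROXY1 and ROXY2 act in flower development, were weakly read in these roots. AT4G33040, outside the list but with the same arrangement of cysteine codons as GRX480, is not in these counts. Its higher level and its rise are given below. Of 18 members 8 could be tested, and the highest level of any of the 18 was 24.5 TMM-scaled RPKM, that of GRX480 in Col without Al. By class 3 rose and 2 fell, and with the length offset 0 rose and 2 fell. The shares over all tested loci were 25.5% and 26.3%, and with the offset 27% and 23.7%. AT3G62930, on chromosome 3 at 23261442 to 23261927, reverse strand, was covered by 5 reads with Al and 35 without Al in coi1-2, and 1 with Al and 34 without Al in Col. Its level was 1.54 with Al and 8.10 without Al in coi1-2, and 0.394 with Al and 7.51 without Al in Col, so both libraries with Al were low and both without were at a similar, higher level (log2 fold change -2.92, SE 0.62, edgeR adjusted p = 3.11e-05). The size of the fall depended on the library left out, from -2.31 without Col with Al to -4.18 without coi1-2 with Al. AT4G15680 fell as well (log2 fold change -1.67, SE 0.53, edgeR adjusted p = 0.00543), but not without coi1-2 without Al (edgeR adjusted p = 0.262). It belongs to a row of neighbouring, near-identical genes (AT4G15660 to AT4G15700), between which unique reads are hard to assign. ROXY1 rose on few reads, 23 reads with Al and 11 without Al in coi1-2, and 22 with Al and 10 without Al in Col (log2 fold change 1.71, SE 0.51, edgeR adjusted p = 0.0029). It did not pass with the offset (edgeR adjusted p = 0.0637) or without either library lacking Al (edgeR adjusted p = 0.126 without the Col without Al library and 0.097 without the coi1-2 without Al library). GRXS13 had the highest mean level of the listed CC-type genes. It was at 17.8 with Al and 14.9 without Al in coi1-2, and 18.9 with Al and 7.93 without Al in Col. The low value of Col without Al stood apart from the other 3, and the fold change of 0.73 did not pass (edgeR adjusted p = 0.0639).

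AT4G33040, with the CC-type arrangement of cysteine codons shown above, had the largest rise of all tested members at 5 RPKM or more. It lies on chromosome 4 at 15940561 to 15941330, reverse strand. Its level was 67.1 with Al and 14.8 without Al in coi1-2, and 111 with Al and 9.48 without Al in Col, which is several-fold in both genotypes with no overlap (log2 fold change 2.85, SE 0.32, edgeR adjusted p = 9.17e-15; 2.18 with the length offset). AT5G38900, annotated only as a protein of the thioredoxin superfamily, followed with 16.5 with Al and 2.30 without Al in coi1-2, and 12.7 with Al and 2.52 without Al in Col (log2 fold change 2.58, SE 0.39, edgeR adjusted p = 3.36e-09). This gene rests on fewer reads, 108 reads with Al and 20 without Al in coi1-2, and 65 with Al and 23 without Al in Col. AT5G42850 rose by 1.72, also with 2 isoforms listed. AT5G13810, annotated as a glutaredoxin family protein and named because it passed in every fit, had 204 with Al and 70.5 without Al in coi1-2, and 217 with Al and 71.9 without Al in Col. Its transcript of 1585 bases is longer than most here, and its fold change was 1.56, and 1.65 with the offset.

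Glutaredoxin family proteins outside the classes held 4 of the 11 falls. Of 13 such glutaredoxin-named genes 11 were tested, 2 rose and 4 fell, with a median of -0.88, and with the offset 2 rose and 5 fell. Over all tested loci 25.5% rose and 26.3% fell, and with the offset 27% and 23.7%. The 13 had a median length of 1416 bases, longer than most members. In the length class of 1300 to 1685 bases 22.6% of all loci rose and 21.1% fell. AT5G03870, one of them, had 2.06 with Al and 7.30 without Al in coi1-2, and 1.90 with Al and 7.95 without Al in Col, low in both libraries with Al (log2 fold change -1.93, SE 0.41, edgeR adjusted p = 2.36e-05; -2.07 with the offset). AT4G10630 of the same group did not pass (-0.88, edgeR adjusted p = 0.0609), but did with the offset (-1.30, edgeR adjusted p = 0.00227) and without coi1-2 with Al (-1.18, edgeR adjusted p = 0.0297). Among thioredoxins with tetratricopeptide repeats, which act as scaffolds in growth and osmotic stress responses of Arabidopsis, 2 of 4 tested fell and 0 rose (2 and 1 with the length offset). Both are in the longest of the 5 length classes, where 55% of all loci fell. TTL1 had 24.7 with Al and 46.5 without Al in coi1-2, and 13.7 with Al and 41.7 without Al in Col (log2 fold change -1.25, SE 0.29, edgeR adjusted p = 0.000105). Its call was lost without coi1-2 without Al (edgeR adjusted p = 0.0842 without the coi1-2 without Al library). TTL4 had 4.76 with Al and 14.7 without Al in coi1-2, and 3.59 with Al and 12.1 without Al in Col (log2 fold change -1.68, SE 0.32, edgeR adjusted p = 2.10e-06). In both genes the treatments did not overlap, and both still fell with the offset, by 0.55 and 1.06. TTL3, a gene chosen after its values were seen, had a fold change of -0.063 and rose with the offset (0.67, edgeR adjusted p = 0.00331). TXND9, a thioredoxin domain protein, fell by 1.12 (edgeR adjusted p = 0.00492), though not when a library without Al was left out (edgeR adjusted p = 0.173 without the Col without Al library and 0.0854 without the coi1-2 without Al library). Most markers of other root cell types fell as well, against 26.3% of all tested loci. Of 7 tested endodermis markers 6 fell and 0 rose. Their summed level was 196.2 with Al and 774.1 without Al in coi1-2, and 146.6 with Al and 740.8 without Al in Col. Of 7 root hair markers 5 fell, summed at 321.2 with Al and 902.1 without Al in coi1-2, and 704.6 with Al and 857.1 without Al in Col. Of 7 markers of dividing cells 5 fell and 1 rose. Their summed level changed less, at 109.9 with Al and 112.2 without Al in coi1-2, and 117.1 with Al and 138.9 without Al in Col. Of 5 root identity markers 3 fell, summed at 565.2 with Al and 1738 without Al in coi1-2, and 657.5 with Al and 1605 without Al in Col. Their part in the result was not tested.

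**Figure D4:**
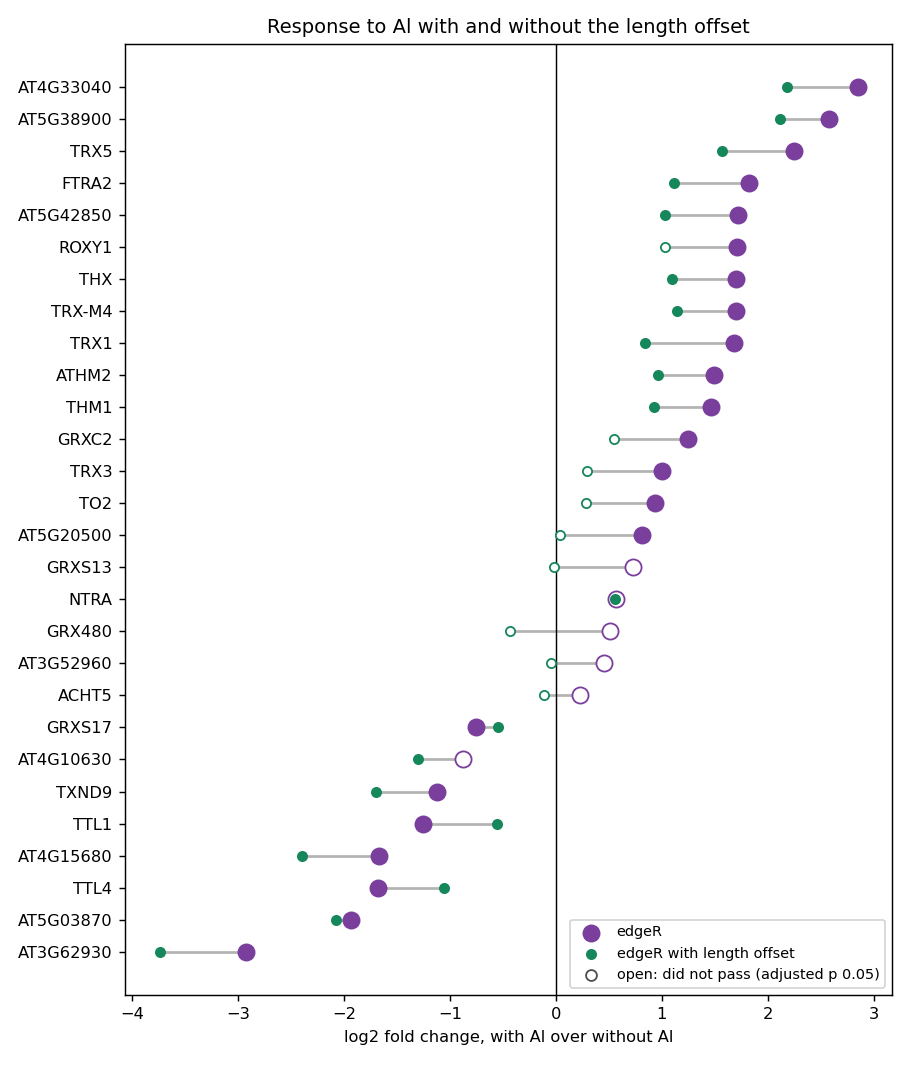
Log2 fold change with Al over without Al for the same 28 members from edgeR (large purple points) and from edgeR with the length offset (small green points), open where the adjusted p missed 0.05. The offset lowers the values of short transcripts such as TRX5 and TRX3 and raises those of long ones such as TTL1 and TTL4.

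Genes that use the electrons of these proteins were mostly higher with Al where they passed. Over all tested loci 25.5% rose and 26.3% fell, and with the length offset 27% and 23.7%. The tested peroxidases and methionine sulfoxide reductases have transcripts of at most 1203 bases. In the shortest and the second shortest length class 49.7% and 34.8% of all loci rose, and 9.45% and 14.3% fell. Of 14 tested peroxiredoxins, glutathione peroxidases and sulfiredoxin, of which 6 are members by name, 9 rose and 0 fell (7 and 0 with the offset). GPX4, a glutathione peroxidase, rose by 1.99, though not without Col without Al (edgeR adjusted p = 0.067 without the Col without Al library), and 2-Cys Prx B of the plastid rose by 1.48, whereas AT3G11630 was at 0.030 and GPX3 at -0.28, and neither passed. AT3G52960, the most abundant member in no class, had 264 with Al and 220.2 without Al in coi1-2, and 377 with Al and 240.5 without Al in Col. The treatments did not overlap, but the fold change of 0.45 did not pass except without coi1-2 with Al (0.73, edgeR adjusted p = 0.00474). Of 12 methionine sulfoxide reductases, which thioredoxins reduce, 6 rose and 1 fell (4 and 2 with the offset). MSRB3 had 192 with Al and 52.9 without Al in coi1-2, and 311 with Al and 45.8 without Al in Col (log2 fold change 2.31, SE 0.30, edgeR adjusted p = 1.51e-11), whereas MSRB6 fell by 1.88. MSRB8 had 10.6 with Al and 0.318 without Al in coi1-2, and 38.2 with Al and 2.73 without Al in Col, the lowest value being coi1-2 without Al (log2 fold change 4.07, SE 0.44, edgeR adjusted p = 3.40e-15). Of 9 tested genes that reduce these proteins or supply glutathione, 6 of them members, 2 rose and 0 fell (4 and 0 with the offset), and GSH2, glutathione synthetase, was at -0.58. Of 7 tested TGA factors and NPR1, the partners of CC-type glutaredoxins and of TRX5, 0 rose and 2 fell (2 and 2 with the offset). TGA1, AHBP-1B, OBF5 and TGA6 of that list had too few reads to be tested, at most 8 in any library. NPR1 had 51.2 with Al and 27.5 without Al in coi1-2, and 39.3 with Al and 30.4 without Al in Col. Both levels with Al exceeded those without in this gene (log2 fold change 0.63, SE 0.28, edgeR adjusted p = 0.0508). It passed with the offset at 1.39 (edgeR adjusted p = 2.22e-08). TGA3 was at 0.30 and did not pass, while PAN and TGA4 fell by 1.65 and 2.47 from few reads. The call of PAN was lost without Col without Al (edgeR adjusted p = 0.223) and without coi1-2 with Al (edgeR adjusted p = 0.0721), and that of TGA4 without coi1-2 without Al (edgeR adjusted p = 0.081 without the coi1-2 without Al library).

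Each genotype's own Al response is a ratio of 2 single libraries and has no test. A member was counted where the log2 ratio of TMM-scaled RPKM plus 0.5 was at least 1 in size and the ratio of reads differed from no change by its exact Clopper-Pearson interval at 95%. In coi1-2, 22 of 97 members were higher and 7 lower with Al (22.7% and 7.22%), against 14.9% and 14.5% of 17376 loci. In Col, 36 were higher and 9 lower (37.1% and 9.28%), against 22.5% and 20.4%. With RPKM as deposited, which lowers the median of all loci by 0.32 in coi1-2 and by 0.59 in Col, the counts were 11 higher and 10 lower in coi1-2 (all loci 9.37% and 23.2%) and 19 higher and 16 lower in Col (all loci 11.4% and 35.8%). With the length trend out they were 10 and 8 in coi1-2 (all loci 13.2% and 12.5%), and 16 and 12 in Col (all loci 16.7% and 15.5%). By the main scaling 18 members were higher and 4 lower in both genotypes, and 0 were called in opposite directions. The shares of all loci called in both genotypes, in the same or in opposite directions, were not counted, so these counts have no background. The Col ratio was the larger in size for 71 of the 87 tested members, and the median difference of responses, coi1-2 minus Col, was -0.36 over these 87, against -0.01 over all loci. With the length trend out these were 56 of 87 and a median of -0.08 (all loci -0.01), and with RPKM as deposited 54 of 87 and -0.06 (all loci 0.25). The share of all loci with the larger ratio in Col was not counted, and more of all loci were called with Al in Col than in coi1-2. The counts of 87 are thus not shown to be particular to these genes.

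By the counting rule 2 members had a higher response in coi1-2 than in Col and 5 a lower one, of 97, against 2.76% and 4.35% of all loci. With the length trend out the counts were 3 and 0 (all loci 1.96% and 2.43%), and with RPKM as deposited 4 and 1 (all loci 7.01% and 1.91%). AT4G33040 had a log2 ratio of 2.15 in coi1-2 and 3.48 in Col, a difference of -1.33 (95% counting interval -1.82 to -0.85). TRX-M4 had 1.10 in coi1-2 and 2.26 in Col, a difference of -1.16 (-1.50 to -0.82). For both genes the level was higher with Al in each genotype, by less in coi1-2, and their differences were -0.91 and -0.81 with the length trend out. TY1, AT1G64500 and HCC2 were the others lower in coi1-2, named for the small count, with differences of -1.04, -1.75 and -1.04. AT1G60740 was lower still but rests on few reads, 0 reads with Al and 3 without Al in coi1-2, and 20 with Al and 5 without Al in Col, and its interval (-7.74 to 1.23) included 0.

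**Figure D5:**
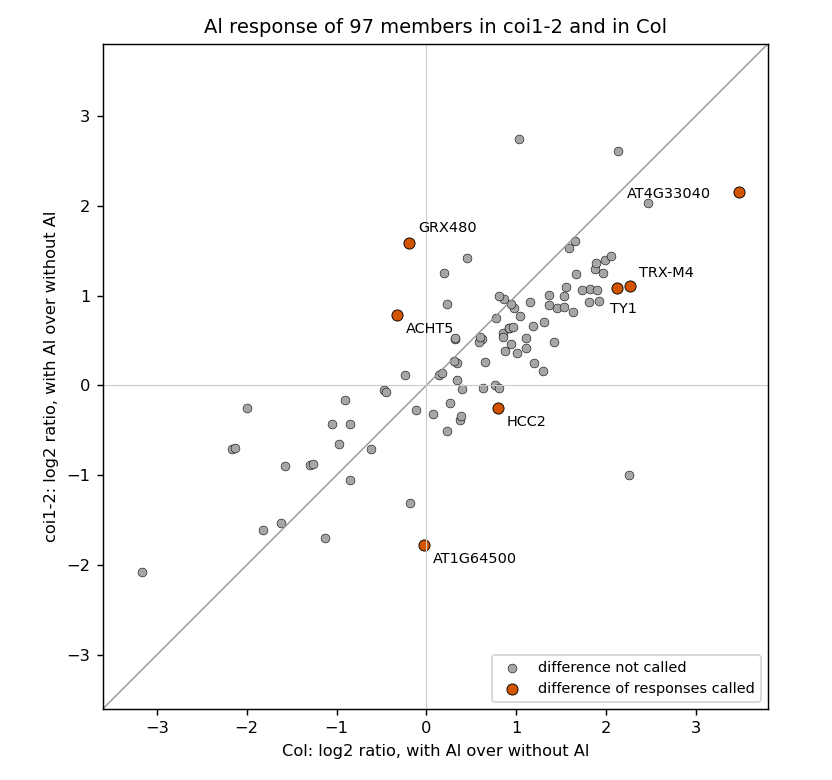
Log2 ratio with Al over without Al in coi1-2 (vertical) against that in Col (horizontal) for 97 members, 1 library a group; the diagonal marks equal responses. Orange points are the 7 members whose difference was called: GRX480 and ACHT5 lie above the diagonal, and TRX-M4, TY1, AT4G33040, HCC2 and AT1G64500 below it.

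GRX480, a CC-type glutaredoxin that binds TGA factors and is induced by salicylate in Arabidopsis, was the 1 member that differed between the genotypes in the test over both treatments. It lies on chromosome 1 at 10013474 to 10014073, reverse strand. The window of 250 bases before the RefSeq start is shown for GRX480 and for TRX5, AT4G33040 and AT3G62930, with matches to TGACG, the core bound by TGA factors, and to TTGAC, the core bound by WRKY factors, in capitals. Both strands were searched, and on the other strand the motifs read CGTCA and GTCAA. GRX480 has 1 match to TGACG, and TRX5 has 1 to TGACG and 2 to TTGAC, of which the second overlaps the match to TGACG. AT4G33040 has 1 match to TTGAC, and AT3G62930 has none to either.
GRX480 (TAIR10.1 chr1:10014257-10014506, reverse strand): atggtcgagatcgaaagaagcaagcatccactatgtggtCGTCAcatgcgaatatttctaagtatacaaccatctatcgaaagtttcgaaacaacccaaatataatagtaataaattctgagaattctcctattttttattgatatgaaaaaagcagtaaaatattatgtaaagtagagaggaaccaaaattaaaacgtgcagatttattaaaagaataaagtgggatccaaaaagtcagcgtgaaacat
TRX5 (TAIR10.1 chr1:17076418-17076667, reverse strand): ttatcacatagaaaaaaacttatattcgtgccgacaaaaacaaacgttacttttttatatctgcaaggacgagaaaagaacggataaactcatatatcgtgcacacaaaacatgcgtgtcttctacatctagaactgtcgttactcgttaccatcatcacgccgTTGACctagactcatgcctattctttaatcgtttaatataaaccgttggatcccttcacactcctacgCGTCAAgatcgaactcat
AT4G33040 (TAIR10.1 chr4:15941494-15941743, reverse strand): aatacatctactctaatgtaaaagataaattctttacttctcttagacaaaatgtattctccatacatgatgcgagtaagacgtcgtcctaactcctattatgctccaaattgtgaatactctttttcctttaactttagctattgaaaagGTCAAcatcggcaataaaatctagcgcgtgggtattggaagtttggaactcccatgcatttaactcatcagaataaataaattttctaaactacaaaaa
AT3G62930 (TAIR10.1 chr3:23261928-23262177, reverse strand): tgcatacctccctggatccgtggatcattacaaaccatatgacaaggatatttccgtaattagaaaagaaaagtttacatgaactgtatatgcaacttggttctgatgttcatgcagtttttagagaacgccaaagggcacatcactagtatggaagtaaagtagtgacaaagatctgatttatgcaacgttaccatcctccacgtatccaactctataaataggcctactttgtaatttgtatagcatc
TGACG was found in 25 of 111 member windows (22.5%), in 12 of the 41 that rose (29.3%), in 2 of the 11 that fell (18.2%) and in 18.6% of 27443 windows of protein-coding genes. TTGAC stood in 46.8% of member windows, in 19 of the 41 that rose (46.3%), in 7 of the 11 that fell (63.6%) and in 44.9% of all. CACGTG, the core bound by MYC factors, stood in 4.5% of member windows, in 2 of those that rose (4.88%), in 1 that fell (9.09%) and in 6.49% of all. A match is a description of the sequence and not a bound site.

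GRX480 was covered by 31 reads with Al and 12 without Al in coi1-2, and 67 with Al and 137 without Al in Col. Its level was 7.74 with Al and 2.25 without Al in coi1-2, and 21.4 with Al and 24.5 without Al in Col. Both coi1-2 libraries lay below both Col libraries, and over both treatments the test gave a lower level in coi1-2 (log2 fold change -2.35, SE 0.39, edgeR adjusted p = 9.45e-06). By that test 0 members rose and 1 fell in coi1-2, against 0.158% and 0.431% of all loci. At an unadjusted p under 0.05 there were 1 higher and 3 lower, and DESeq2 also called 0 higher and 1 lower. No fit that left out a library kept the call, with fold changes of -2.30 without Col with Al, -2.10 without Col without Al, -3.35 without coi1-2 with Al and -1.57 without coi1-2 without Al (edgeR adjusted p of 0.869 or more). These fits hold 3 libraries and no term for Al. The genotypes were further apart without Al (log2 ratio of coi1-2 over Col -3.18, 95% counting interval -4.43 to -2.59) than with Al (-1.41, -2.13 to -0.83). In coi1-2 its level was higher with Al (log2 ratio 1.58), whereas in Col it was at -0.19, a difference of 1.77 (0.74 to 2.81), and 2.28 with the length trend out. The ratio in Col depended on the scaling. With the length trend out it was -1.18 and called lower, against 1.10 and called higher in coi1-2. With RPKM as deposited it was -0.84 and not called, against 1.27 and called higher in coi1-2. Over both genotypes Al gave 0.51 (edgeR adjusted p = 0.26), and 2.66 without Col without Al (edgeR adjusted p = 0.00273).

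ACHT5, an atypical thioredoxin of plastids on chromosome 5 at 24707500 to 24708893, forward strand, was the other member with a higher response in coi1-2. It was well read, with 711 reads with Al and 549 without Al in coi1-2, and 466 with Al and 1045 without Al in Col. Its level was 96.3 with Al and 55.9 without Al in coi1-2, and 80.8 with Al and 101 without Al in Col. The value of coi1-2 without Al stood below the other 3, which gave a ratio of 0.78 in coi1-2 and -0.33 in Col (difference 1.11, interval 0.88 to 1.33). Of the 6 ACHT and WCRKC genes 4 were tested for Al over both genotypes, and 2 rose and 0 fell (1 and 0 with the length offset). The shares over all tested loci were 25.5% and 26.3% (27% and 23.7% with the offset). ACHT1 of the same class had similar responses in both genotypes, with ratios of 1.61 in coi1-2 and 1.66 in Col, and was called over both (log2 fold change 1.66, SE 0.30, edgeR adjusted p = 7.64e-07).

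Other single-library differences between genotypes were few. With Al, 1 member was at least 2-fold higher and 4 lower in coi1-2 than in Col, against 3.05% and 4.73% of all loci, and without Al 1 was higher and 2 lower, against 1.32% and 1.28%. With RPKM as deposited the counts with Al were 5 higher and 3 lower (all loci 7.87% and 1.87%), and with the length trend out 3 and 2 (all loci 2.21% and 2.11%). With Al the lower ones were GRX480, THM1, AT1G60740 and AT5G18600. THM1, an m-type plastid thioredoxin, had 27.6 with Al and 14.2 without Al in coi1-2, and 62.7 with Al and 16.2 without Al in Col, so that the level with Al was the higher one in both genotypes and lower in coi1-2 than in Col (log2 ratio -1.17, interval -1.46 to -0.90). AT1G60740 had 0 reads in coi1-2 with Al and 20 in Col with Al, which is at least 8.53-fold lower with each library's floor set at 3 reads. It is a near copy of TPX1 and TPX2, thioredoxin-dependent peroxidases, and reads common to them are not counted. AT5G18600 had 0 reads in both coi1-2 libraries and 7 with Al and 6 without Al in Col, at least 2.99-fold lower in coi1-2 with Al and at least 1.91-fold lower without Al against the same floor. The gene higher in coi1-2 with Al was AT2G41330, with 18 reads with Al and 43 without Al in coi1-2, and 3 with Al and 47 without Al in Col, and the one higher without Al was AT1G64500, with 8 reads with Al and 50 without Al in coi1-2, and 6 with Al and 11 without Al in Col. All 4 of these genes rest on few reads and were named for the small count. Among the partners, MSRB7 and MSRB8 were lower in coi1-2 over both treatments (log2 fold changes -1.65 and -2.06, edgeR adjusted p = 0.00308 and 0.0014), and neither passed in any of the 4 fits with a library left out (edgeR adjusted p of 0.394 or more). MSRB7 had 9.16 with Al and 37.7 without Al in coi1-2, and 109 with Al and 37.3 without Al in Col. With Al its level was far higher in Col than without, and lower in coi1-2 than without, so the genotypes' values with Al were the extremes.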

How the data were processed

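Per the labels' protocols, poly(A) RNA of roots was fragmented, reverse transcribed from random primers and read on an Illumina instrument, with no step described that keeps strand. Per the file headers, the authors gave each transcript a read count of uniquely placed reads in whole numbers. Their deposited RPKM divides it by transcript length and library total, per the file headers. Neither the build of the genome nor the aligner is given in the sources used here. Where a table did not list a transcript it counted as 0 reads, and counts and RPKM were summed over the isoforms of a locus. Reads common to isoforms or to near-identical genes are not counted, so 11 members with several isoforms may read too low.

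Counts were tested with edgeR 4.0.16 in R 4.3.3 (TMM, filterByExpr, additive terms for genotype and Al, 16477 loci, adjusted p threshold 0.05). The fit had 1 residual and 192.78 prior degrees of freedom and a common dispersion of 0.0385, so its p-values rest on the spread over all genes. The labels name no separate cultures within a group, and a difference in Al response between genotypes counts as error in this fit. SE is the log2 fold change over the square root of F. RPKM was divided by the TMM factors, and single-library ratios were taken on log2(RPKM + 0.5), a scale on which changes of low genes come out smaller, over loci with 1 RPKM in 1 library. The interval of a difference of responses is a normal approximation on log reads. The floor of 3 reads is 0.417 CPM in coi1-2 with Al, 0.404 in coi1-2 without Al, 0.433 in Col with Al and 0.385 in Col without Al. Intervals and floors cover counting error only, since PCR copies are no independent molecules. The length offset is a lowess trend (span 0.3) of each library's log ratio with transcript length. Alternatives were DESeq2 1.42.0, limma 3.58.1 on log2 RPKM, size factors of DESeq2 in edgeR, no filter, each library left out with the other factor dropped, pseudocounts of 0.1 and 1, and a filter of 5 RPKM. The scripts were tested on simulated data, in which most genes were left unchanged. There the Al test recovered 40 of 100 genes with a log2 fold change of 1 in size and 100 of 100 at 2. A gene that did not pass is thus not shown to be unchanged.

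All 111 loci matched the RefSeq gene table of TAIR10.1 by locus code, 53 with a symbol. Of 22469 loci matched there, 99.97% overlapped the files' position on the same strand. The members, lists and tests were chosen with earlier results of these data known. Genes were named by a rule: at 5 RPKM or more, the 8 highest and 8 lowest changes with Al, the 3 highest and lowest for genotype and for the difference of responses, the most abundant member of each class, and GRX480, TRX5, TRX3, GRXS17 and GRXC2, with 2 highest and 2 lowest of each partner list. Members named otherwise were chosen after their values were seen.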

Additional observations from a re-analysis of the deposited data

Results flagged for a closer look

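In 3 members the Al response had opposite signs in the genotypes, differed by at least 1 log2 unit, and the counting interval of the difference excluded 0. Over all loci, 2.76% had a response called higher in coi1-2 and 4.35% a lower one, whatever the signs. The share of loci with opposite signs was not counted. By the main scaling, only the ratio of GRX480 in coi1-2 was itself at least 1 log2 unit in size. Each genotype's response rests on 1 library with Al and 1 without, so the difference was not tested across replicates. GRX480 differed by 1.77 log2 units, coi1-2 minus Col (counting interval 0.74 to 2.81), with a ratio of 1.58 in coi1-2 and -0.19 in Col. The counting interval of its ratio in Col (-0.64 to 0.24) included 0 by the main scaling. With the length trend out the ratio of GRX480 was -1.18 in Col and 1.10 in coi1-2, and both were called. GRX480 had few reads in coi1-2, 31 with Al and 12 without Al, against 67 with Al and 137 without Al in Col. ACHT5 differed by 1.11 (0.88 to 1.33), with 0.78 in coi1-2 and -0.33 in Col. HCC2, a homologue of a copper chaperone of cytochrome oxidase, differed by -1.04 (-1.92 to -0.16), with -0.25 in coi1-2 and 0.79 in Col, from 31 reads with Al and 50 without Al in coi1-2, and 44 with Al and 43 without Al in Col. With the length trend out the difference of HCC2 was -0.90 and was no longer called, and those of GRX480 (2.28) and ACHT5 (1.29) were.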

How the results depend on the processing

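Depth limits the listed CC-type glutaredoxins most, since 10 of 18 had too few reads to be tested. No paired analysis was possible because each group holds 1 library and the labels give no replicate numbers. In a fit without 1 library the lone sample of an arm is assumed to vary like the others. These fits gave 17 to 46 members higher and 3 to 12 lower with Al, 0 to 0 members lower in coi1-2, and 5 to 24 partner genes higher and 2 to 5 lower with Al, against 41, 11, 1, 17 and 3 with all 4 libraries. DESeq2 called 4 members lower with Al, and limma-trend called 23 members higher and 6 partner genes lower. With RPKM as deposited, 19 members were higher and 16 lower with Al in Col, 11 were higher in coi1-2, 5 were higher in coi1-2 than Col with Al, and the difference of responses was called higher for 4 and lower for 1. With the length trend out, 16 were higher with Al in Col and 10 in coi1-2, 3 were higher and 2 lower in coi1-2 than Col with Al, and 0 had a lower response in coi1-2. At 5 RPKM or more, 4 were lower with Al in coi1-2, 0 were higher in coi1-2 than Col with Al and 0 without Al, and 1 was lower without Al. With a pseudocount of 1, 1 was lower in coi1-2 than Col without Al and 3 had a lower response in coi1-2; with 0.1, 4 had a higher one. Of 80 fold changes of named or called genes, 15 lost their call with the length offset, 20 with DESeq2 and 20 with limma-trend, 15 without Col with Al, 36 without Col without Al, 8 without coi1-2 with Al and 38 without coi1-2 without Al. Leaving out a library gave MSRB7 -2.02 to 1.56 with Al (above 0 without coi1-2 with Al) and MSRB8 -5.92 to 0.98 for coi1-2 over Col (above 0 without Col with Al). The causes were not tested.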

Other observations

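Proteins with a thioredoxin domain that the name rule leaves out were mixed. Of 10 tested protein disulfide isomerases, which form disulfide bonds in the endoplasmic reticulum, 5 fell with Al and 1 rose (6 and 1 with the length offset). Over all tested loci 26.3% fell and 25.5% rose (23.7% and 27% with the offset). Most of these isomerases lie in the length classes of 1300 to 1685 and 1686 to 2223 bases. There 21.1% and 31.6% of all loci fell, and 22.6% and 14.4% rose. PDIL1-3 had 22.4 with Al and 53.6 without Al in coi1-2, and 15.5 with Al and 63.0 without Al in Col (log2 fold change -1.63, SE 0.29, edgeR adjusted p = 6.25e-07). PDIL1-2, the 1 that rose, had 136 with Al and 68.4 without Al in coi1-2, and 102 with Al and 75.0 without Al in Col (log2 fold change 0.72, SE 0.29, edgeR adjusted p = 0.0276). The nucleoredoxin AT1G60420, which in Arabidopsis protects antioxidant enzymes, had 163 with Al and 50.7 without Al in coi1-2, and 119 with Al and 51.2 without Al in Col, above in both libraries with Al (log2 fold change 1.45, SE 0.29, edgeR adjusted p = 8.68e-06). Its fold change was 1.88 with the offset. CXIP2, a CGFS-type glutaredoxin of plastids whose name lacks the word, rose by 1.10 (edgeR adjusted p = 0.000891) and by 0.64 with the offset, whereas CXIP1 at 0.63 did not pass (edgeR adjusted p = 0.0509). PDIL1-2 did not pass when a library without Al was left out (edgeR adjusted p = 0.281 without the Col without Al library and 0.403 without the coi1-2 without Al library), nor did CXIP2 (edgeR adjusted p = 0.103 without the Col without Al library and 0.136 without the coi1-2 without Al library). CXIP1 passed without coi1-2 with Al (edgeR adjusted p = 0.00133). PDIL1-3 and AT1G60420 passed in each of the 4 such fits. CXXS1, on the h-type list but without the word in its name, was at -0.74 and did not pass (edgeR adjusted p = 0.0788). With the offset it fell (-1.53, edgeR adjusted p = 4.52e-05). These genes were picked after their values were seen.

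AT3G62950, a CC-type glutaredoxin next to AT3G62930, had 13 reads with Al and 0 without Al in coi1-2, and 3 with Al and 1 without Al in Col. That is at least 5.77-fold higher with Al in coi1-2 against the floor of 3 reads per library, in a gene otherwise near the floor.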
